A study of Mus musculus with 16 samples.

Results

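The 8 genes Nfe2l2, Keap1, Srxn1, Nqo1, Gclc, Gclm, Hmox1 and Txnrd1 of the NRF2 oxidative stress response were followed in mouse liver. They were chosen by name, as the probes whose platform gene symbol is one of the 8, and 15 of the 25697 probes on the array met this rule. The choice was made with earlier results of these data known. All 8 genes had a detected probe and were among the 9095 genes tested, of 16593 genes that the platform annotation names. The level of a gene below is the log2 intensity of its detected probe with the highest mean, and each of these 8 probes was above background (detection p below 0.05) in all 16 arrays.

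NRF2, the product of Nfe2l2, is a transcription factor that KEAP1 holds in the cytoplasm and hands over for degradation. When electrophiles or oxidants modify KEAP1, NRF2 escapes, enters the nucleus, pairs with small MAF proteins and binds antioxidant response elements beside its target genes. In liver these targets make glutathione, reduce oxidised thiols and quinones, break down heme and conjugate xenobiotics. Much of this control acts on the NRF2 protein, which the arrays do not measure.

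The samples were livers of male C57Bl/6Hsd mice, wild type or SHP-/-, that were fed chow or a western diet. SHP, encoded by Nr0b2, is an orphan nuclear receptor that represses other transcription factors in bile acid and lipid metabolism. Feeding began at 4 months of age and lasted 6 months. The mice were 10 months old at collection and had fasted overnight. Each of the 4 groups (wild type on chow, SHP-/- on chow, wild type on western diet and SHP-/- on western diet) held 4 mice, and each mouse had 1 array of its own. The labels do not limit the loss of SHP to hepatocytes, so it cannot be assigned to a cell type. Mean signal per array before normalization was 262 to 384 units. The wild type mice on western diet, which enter every comparison with calls among the 8 genes, stood apart: 48.8% to 51.1% of probes were detected in their arrays, against 43.6% to 47.3% in the other 3 groups, and their group mean signal was 360 units, against 294 to 319. The part of this in the results below was not tested. The Nr0b2 probe was above background in 0 of 16 arrays, including those of wild type mice, so it did not check the genotype labels. Of the hepatocyte markers, Apoa1, Ttr, Cps1, Serpina1a, Hnf4a and Ahsg were detected in all 16 arrays, whereas the probes of Alb, Tat and Fgb were detected in 8, 1 and 0 arrays.

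In wild type liver the western diet raised Nfe2l2 itself and 3 of its targets, Srxn1, Nqo1 and Gclc, by 1.42-fold to 2.24-fold. SHP-/- livers on the same diet had lower Nfe2l2, Srxn1 and Hmox1 than wild type livers, by 1.74-fold to 1.92-fold. Tests were limma's moderated test on log2 levels in a model of all 16 arrays, with Benjamini-Hochberg adjustment over the 9095 genes and calls at an adjusted p below 0.05. The diet in wild type mice called 4 of the 8 genes higher and 0 lower, where 29.6% of all genes were called, 15.5% higher and 14.1% lower. The knockout on western diet called 0 of the 8 higher and 3 lower, where 19.8% of all genes were called, 8.82% higher and 11% lower. On chow the knockout called 0 of the 8 by limma, with 2 at an unadjusted p below 0.05, where 0.836% of all genes were called (0.440% higher and 0.396% lower) and 10.7% had such an unadjusted p. In knockout mice the diet called 0 of the 8 by limma, with 2 at an unadjusted p below 0.05, against 7.88% of all genes called (4.52% higher and 3.36% lower) and 24.1% with such an unadjusted p. The effect of the diet differed between the genotypes for 3 of the 8, all 3 with a lower response in the knockout, where 7.05% of all genes were called, 4.76% in that direction and 2.29% in the other. The wild type mice on western diet enter both comparisons with calls among the 8 genes and the test of the difference, so these results share samples and are not independent of each other. Scaling the arrays to a common median in place of quantiles moved the balance of calls: 1774 higher and 535 lower for the diet in wild type mice, against 1407 and 1286, and 403 higher and 1334 lower for the knockout on western diet, against 802 and 997.

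Whole liver was measured, so fewer cells of a type and less RNA per cell cannot be told apart. Markers of macrophages and Kupffer cells, the resident macrophages of liver, moved with these contrasts and with others. The summed linear level of the 10 tested markers of that list was 1496 to 2249 in wild type mice on chow and 1561 to 2081 in SHP-/- mice on chow. It was 5780 to 11582 in wild type mice on western diet and 2030 to 2750 in SHP-/- mice on that diet. Of these 10 markers 8 rose with the diet in wild type mice and 8 were lower in the knockout on western diet, where 15.5% and 11% of all genes did. The shares of all genes given above stand beside the other marker counts below as well. In knockout mice 4 of the 10 rose with the diet, where 0 of the 8 NRF2 genes were called, and the diet effect was lower in the knockout for 7 of the 10. Itgax was detected in 1 array and Msr1 in 0. Among the 10, Mmp12 was above background in 1 wild type and 0 knockout mice on chow, and in 4 and 3 on western diet. In that order the counts were 1, 2, 4 and 4 for Trem2 and 2, 0, 4 and 4 for the Gpnmb probe used. These markers passed the detection filter mainly through mice on western diet, so the filter in part set their rise, from values near background on chow. Of the 10 stellate cell and fibroblast markers 7 rose with the diet in wild type mice and 5 were lower in the knockout on western diet, with summed levels of 6068 to 7733 in wild type mice on western diet and 3727 to 5122 over the other 3 groups. Col1a2 was above background in 0 wild type and 0 knockout mice on chow, and in 4 and 3 on western diet. In that order the counts were 0, 1, 4 and 4 for Col3a1, 0, 1, 4 and 3 for Pdgfrb and 2, 0, 4 and 3 for Col1a1. The same limit of the filter holds for these. The 7 tested hepatocyte markers summed to 120522 to 142348 over all arrays, with 3 lower with the diet in wild type mice and 2 higher in the knockout on western diet. Of the 4 neutrophil markers 2 rose with the diet in wild type mice. Of the 6 lymphocyte and NK cell markers 0 passed in any comparison by limma, with 1 at an unadjusted p below 0.05 in each of the knockout comparisons. Of the 9 endothelial markers 1 rose and 1 fell with the diet in wild type mice and 2 were lower in the knockout on western diet. Of the 3 cholangiocyte markers 0 passed, with 1 at an unadjusted p below 0.05 for the diet in each genotype. Lymphocyte markers Cd4, Cd8a, Ms4a1 and Gzma and cholangiocyte markers Krt19 and Cftr were above background in 0 arrays. Of the tested ones, Cd79a was above background in 4 of 16 arrays, Cd3g and Nkg7 in 5 and Krt7 in 6. The lack of a call for these says little about the cells. The part of these cells in the levels of the 8 genes was not tested.

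**Figure D1:**
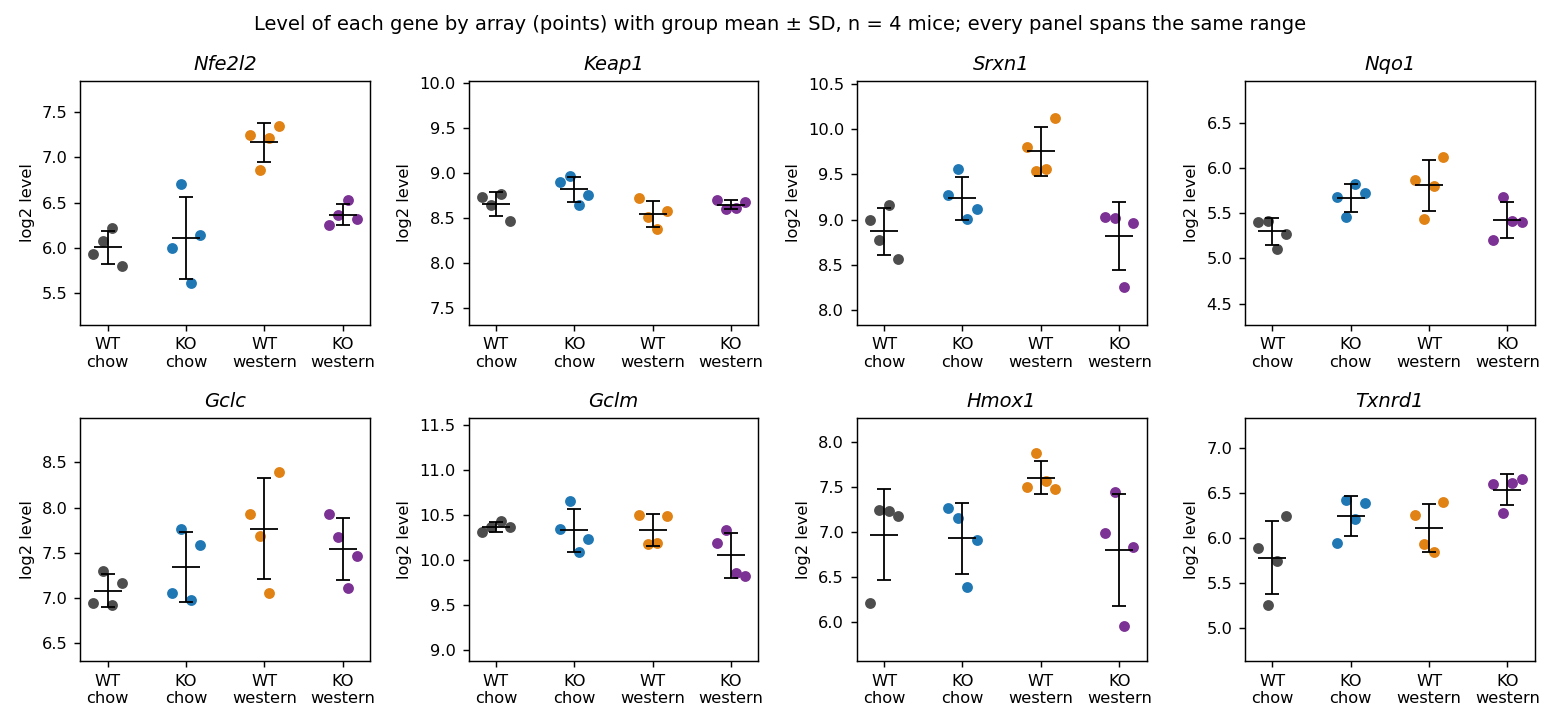
Log2 level of each of the 8 genes (vertical axis) in every mouse (points) of the 4 groups (horizontal axis; WT, wild type; KO, SHP-/-), with the group mean and SD (n = 4 mice). Nfe2l2 and Srxn1 lay higher in all 4 wild type mice on western diet than in any mouse on chow of that genotype or any knockout mouse on western diet, whereas Gclm and Keap1 overlapped.

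Nfe2l2, the gene of the NRF2 factor itself, measured 5.93, 6.07, 6.22 and 5.80 on the log2 scale in the 4 wild type mice on chow. In wild type mice on western diet it measured 7.25, 6.86, 7.22 and 7.35. Every mouse of the second group lay above every mouse of the first, and the mean difference was 1.17 ± 0.18 (log2, SE), or 2.24-fold, with an adjusted p of 7.99e-05 by limma. SHP-/- mice had levels of 6.00, 6.70, 5.61 and 6.14 on chow and of 6.25, 6.36, 6.53 and 6.32 on western diet. These 2 knockout groups overlapped, and their difference of 0.26 (95% interval -0.12 to 0.63) did not pass the test. On western diet all 4 knockout mice lay below all 4 wild type mice, with a mean difference of -0.80 ± 0.18, 1.75-fold lower, and an adjusted p of 0.00336 by limma. The diet effect in the knockout minus that in wild type was -0.91 ± 0.25, with an adjusted p of 0.0350. This interaction missed the threshold in 3 of 11 other settings and on leaving out each of 11 of the 16 arrays, where its adjusted p reached 0.0695. Raw signals of the probe were 82.3 to 124 units in wild type mice on chow and 207 to 227 in wild type mice on western diet, before normalization.

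Keap1, the inhibitor of NRF2, passed no test with the probe used for the gene. Its log2 level was 8.47 to 8.77 in wild type mice on chow, 8.65 to 8.96 in knockout mice on chow, 8.38 to 8.72 in wild type mice on western diet and 8.60 to 8.70 in knockout mice on western diet. Every pair of these 4 ranges overlapped. The knockout minus wild type difference on western diet was 0.11, with a 95% interval of -0.10 to 0.31. Keap1 has 4 probes, all detected in 16 of 16 arrays, and they did not give the same calls for the diet. Probe ILMN_2621346 was lower on western diet by -0.39 in wild type mice (adjusted p = 0.0285 by limma over all probes) and by -0.43 in knockout mice (0.0467). Probe ILMN_2707771 was lower by -0.31 in wild type mice (adjusted p = 0.0386 by limma over all probes) and by -0.43 in knockout mice (0.0201). Probe ILMN_1258406 had differences of -0.25 and -0.21 that did not pass. With the probe used for the gene the diet difference was -0.11 in wild type mice and -0.17 in knockout mice. In wild type mice that value turned to 0.014 when arrays were scaled to a common median instead of by quantiles, whereas the mean over the detected probes fell by 0.26 with an adjusted p of 0.0339.

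Srxn1 encodes sulfiredoxin, which repairs over-oxidised peroxiredoxins. Its log2 level was 8.99, 8.77, 9.16 and 8.56 in wild type mice on chow and 9.80, 9.53, 9.56 and 10.12 in wild type mice on western diet. The 2 groups did not overlap, and the difference was 0.88 ± 0.18, 1.85-fold, with an adjusted p of 0.000933 by limma. SHP-/- mice measured 9.28, 9.56, 9.01 and 9.11 on chow and 9.03, 9.01, 8.25 and 8.96 on western diet. The third of these western diet mice lay far below the other 3. On western diet the knockout was lower by -0.94 ± 0.18, 1.92-fold, with no overlap of the groups and an adjusted p of 0.000819. Within the knockout the diet difference was -0.42 (95% interval -0.80 to -0.05), opposite in sign to that in wild type, and it did not pass after adjustment (adjusted p = 0.147, unadjusted p = 0.0269). The difference between the diet effects, -1.31 ± 0.25, had an adjusted p of 0.00367 and was past the threshold in all 11 other settings and on leaving out each of the 16 arrays.

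All 3 detected probes of Srxn1 gave these calls. In wild type mice the diet raised probe ILMN_1229994 by 0.95 (adjusted p = 0.00232 by limma over all probes) and probe ILMN_2667346 by 1.12 (0.000699). On western diet the knockout was lower by -1.01 (0.00211) and -1.16 (0.000711) at the same 2 probes. The interaction was -1.51 (0.00534) and -1.37 (0.0110). Srxn1 was thus called in the same direction at each of its probes in all 3 comparisons, while the Keap1 probes split.

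**Figure D2:**
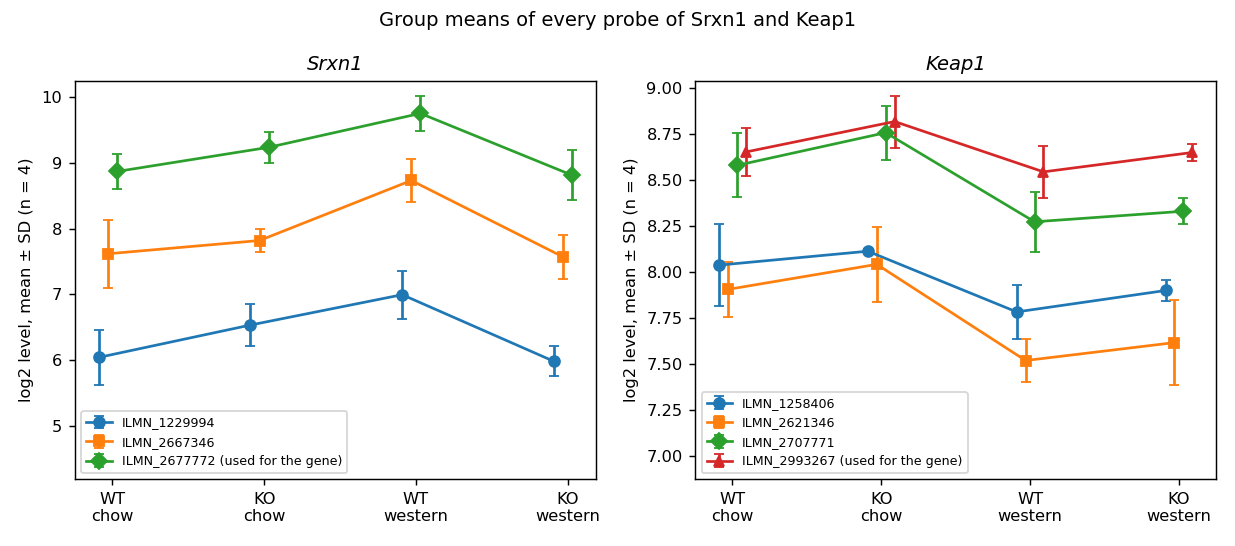
Mean log2 level with SD (vertical axis, n = 4 mice) of every probe of Srxn1 (left) and Keap1 (right) in the 4 groups (horizontal axis; WT, wild type; KO, SHP-/-), with lines joining the means of 1 probe. The 3 Srxn1 probes peaked in wild type mice on western diet, while the 4 Keap1 probes had diet differences between -0.43 and -0.11.

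Promoter sequence was read for members from RefSeq (build GRCm38.p6), 250 bases before to 50 bases after the start of each gene, in which 6 of the 8 genes matched, and not Gclc or Hmox1. Txnrd1 had 3 promoters there and each of the other 5 matched genes had 1. The promoters were searched on both strands for the core of the antioxidant response element, TGACNNNGC (N, any base), for its relative TGAGNNNGC, and for TGAGTCA, the site of AP-1 factors, which overlaps TGAGNNNGC where GC follows at the right place. These letters are common: 12.4% of 32851 promoters of the same length held TGACNNNGC, 17.6% held TGAGNNNGC and 5.2% held TGAGTCA. The 3 promoters below are shown because these genes had the differing diet effects above, or in the case of Nqo1 below, in capitals where the letters of a motif match, 5′ to 3′ on the strand of the gene. Srxn1 lies at chr2:152105274-152105573 on the plus strand, Nfe2l2 at chr2:75704614-75704913 on the minus strand and Nqo1 at chr8:107403156-107403455 on the minus strand.
Srxn1: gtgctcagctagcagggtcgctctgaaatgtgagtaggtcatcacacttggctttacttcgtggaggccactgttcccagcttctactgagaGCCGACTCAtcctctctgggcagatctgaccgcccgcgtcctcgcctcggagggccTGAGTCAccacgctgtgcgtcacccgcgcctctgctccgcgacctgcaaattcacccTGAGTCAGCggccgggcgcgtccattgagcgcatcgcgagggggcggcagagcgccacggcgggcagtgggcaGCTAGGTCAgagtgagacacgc
Nfe2l2: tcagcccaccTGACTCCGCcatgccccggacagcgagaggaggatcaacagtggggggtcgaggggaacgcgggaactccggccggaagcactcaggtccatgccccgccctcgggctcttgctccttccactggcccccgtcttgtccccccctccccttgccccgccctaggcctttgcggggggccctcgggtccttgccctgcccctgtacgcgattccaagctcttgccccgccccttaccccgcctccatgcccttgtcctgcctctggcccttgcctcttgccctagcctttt
Nqo1: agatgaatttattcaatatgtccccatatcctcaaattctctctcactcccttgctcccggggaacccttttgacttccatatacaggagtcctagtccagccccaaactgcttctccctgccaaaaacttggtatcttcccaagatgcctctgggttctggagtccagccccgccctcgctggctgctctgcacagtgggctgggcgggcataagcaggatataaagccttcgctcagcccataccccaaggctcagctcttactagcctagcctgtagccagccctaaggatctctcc

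Srxn1 had matches at 4 places in these 300 bases. TGAGTCAGC, which is both TGAGTCA and TGAGNNNGC, began at -45 from the start site, and a lone TGAGTCA began at -102. On the reverse strand GCCGACTCA at -158 read as TGAGNNNGC, and GCTAGGTCA at 29 read as TGACNNNGC. Nfe2l2 held TGACTCCGC at -240 and no other match. The Nqo1 window held none of the 3 motifs, which says only that these letters are not in this window. Gclm held GCACCGTCA at -134, a reverse strand match of TGACNNNGC, 1 of the Txnrd1 promoters held GCTTTGTCA at -92, also on the reverse strand, and the Keap1 promoter held none. A match is a description of the letters, and the arrays did not measure binding of any factor there.

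Txnrd1, the cytosolic thioredoxin reductase, passed no test in the 5 comparisons by limma. Its log2 level was 5.26 to 6.24 in wild type mice on chow and 5.94 to 6.42 in SHP-/- mice on chow. On western diet it was 5.84 to 6.40 in wild type mice and 6.28 to 6.66 in SHP-/- mice. The knockout minus wild type difference was 0.46 ± 0.18 on chow and 0.43 ± 0.18 on western diet, and neither passed after adjustment (adjusted p = 0.339 and 0.112 by limma, unadjusted p = 0.0220 and 0.0308). The mean was thus higher in the knockout on both diets, although the groups overlapped. Its diet difference in wild type mice was 0.33 ± 0.18 (adjusted p = 0.198) and passed with median scaling (0.0194). The difference between its diet effects was -0.03, with a 95% interval of -0.57 to 0.51, where that of Srxn1 was -1.31 (-1.83 to -0.79). The difference between the 2 genes was not tested.

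Nqo1 encodes a quinone reductase that is a classical target of NRF2. It measured 5.41, 5.42, 5.10 and 5.27 in wild type mice on chow and 5.87, 5.44, 5.80 and 6.13 in wild type mice on western diet. All western diet values lay above all chow values, with a difference of 0.51 ± 0.15, 1.42-fold, and an adjusted p of 0.0146 by limma, which was 0.0576 without the fourth wild type mouse on western diet. SHP-/- mice measured 5.69, 5.46, 5.82 and 5.72 on chow, all above the wild type mice on chow, and 5.20, 5.68, 5.41 and 5.40 on western diet. On chow Nqo1 alone of the 8 had genotype groups without overlap, as did 6.52% of all genes. Its difference of 0.37 ± 0.15 had an adjusted p of 0.341 and an unadjusted p of 0.0223. On western diet the difference turned to -0.38 ± 0.15, with an adjusted p of 0.0790, which became 0.00337 when arrays were scaled to a common median. The difference between the diet effects was -0.76 ± 0.21, with an adjusted p of 0.0355 that missed the threshold in 3 of 11 other settings and on leaving out each of 11 of the 16 arrays. Its levels were not far above the lowest detected level of an array, which was 4.59 to 4.83 on the log2 scale.

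Gclc and Gclm encode the catalytic and the modifier subunit of glutamate-cysteine ligase, which makes the first product on the way to glutathione. Gclc was 6.92 to 7.30 in wild type mice on chow and 7.05 to 8.39 in wild type mice on western diet, where 3 of the 4 mice lay above every mouse on chow. Its difference of 0.69 ± 0.23, 1.61-fold, had an adjusted p of 0.0333, which rose to 0.128 without the fourth wild type mouse on western diet. In SHP-/- mice Gclc was 6.98 to 7.76 on chow and 7.11 to 7.92 on western diet, and the groups overlapped. Gclm was 10.31 to 10.44 in wild type mice on chow and 10.18 to 10.50 in wild type mice on western diet. The diet difference of Gclm was -0.03 in wild type mice, with a 95% interval of -0.29 to 0.24. For Gclc the interval was 0.20 to 1.18, and the 2 intervals overlapped. In SHP-/- mice Gclm was 10.09 to 10.65 on chow and 9.83 to 10.33 on western diet, a difference of -0.28 (adjusted p = 0.184 by limma). The difference between the 2 subunits in their diet effect was not tested.

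Hmox1 encodes heme oxygenase, which degrades heme. It measured 7.50, 7.87, 7.56 and 7.48 in wild type mice on western diet and 6.99, 7.44, 5.96 and 6.83 in SHP-/- mice on that diet. The groups did not overlap, though the highest knockout mouse lay just below the lowest wild type mouse. The difference was -0.80 ± 0.27, 1.74-fold lower, with an adjusted p of 0.0428 by limma. This call was lost in 4 of 12 other settings and on leaving out each of 8 of the 16 arrays, and without the third knockout mouse on western diet the difference was -0.51 with an adjusted p of 0.154. In wild type mice on chow Hmox1 was 6.22, 7.25, 7.23 and 7.18, all below the wild type mice on western diet. The diet difference of 0.63 ± 0.27 had an adjusted p of 0.0842. The first chow mouse lay far below the other 3, and without it the difference was 0.38 with an adjusted p of 0.299. It passed when arrays were scaled to a common median (0.0388) and when only the groups compared were fitted (0.0360). In SHP-/- mice on chow Hmox1 was 6.39 to 7.26, and the diet difference there was -0.12.

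Set side by side, the 8 genes had a median log2 difference of 0.57 for the diet in wild type mice and of -0.33 for the knockout on western diet, where all genes tested had medians of -0.03 and 0.03. On chow the median of the knockout difference was 0.22, against 0.01 for all genes, with no call. For the diet in knockout mice it was -0.15, against -0.01. For the difference between the diet effects it was -0.62, against 0.01. The diet in wild type mice left the groups without overlap for 4 of the 8 (Nfe2l2, Srxn1, Nqo1 and Hmox1), against 29% of all genes, and the knockout on western diet for 3 (Nfe2l2, Srxn1 and Hmox1), against 21.2%. The diet in knockout mice separated 0 of the 8, against 14.4%. Because the 8 genes were chosen with earlier results of these data known, these contrasts with all genes describe them and are not an independent test.

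**Figure D3:**
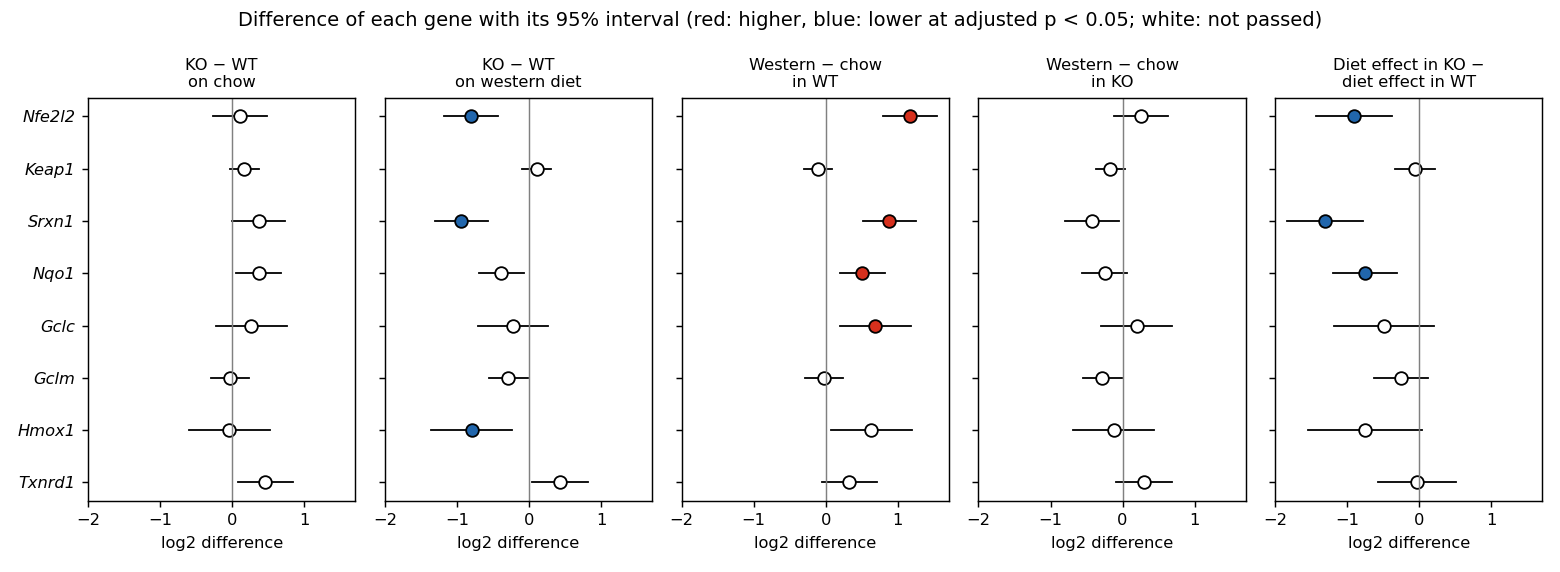
Log2 difference of each of the 8 genes (horizontal axis) with its 95% interval in 5 comparisons (panels; WT, wild type; KO, SHP-/-), filled red where higher and blue where lower at an adjusted p below 0.05 by limma. Nfe2l2 and Srxn1 are called in 3 panels, and the 2 panels of the knockout on chow and of the diet in the knockout hold no call.

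Genes whose centred log2 levels followed a member most closely over the 16 arrays were listed by root mean square difference, 2 for each member with a call. Nfe2l2 was nearest to Rnf145 (0.19) and to Me1 (0.23), the cytosolic malic enzyme that supplies NADPH. Srxn1 was nearest to Prune1 (0.22) and Ugt2b35 (0.23). Nqo1 was nearest to Cnnm2 (0.14) and Cert1 (0.18), Gclc to Lipa (0.24), the lysosomal acid lipase, and Stat5a (0.25), and Hmox1 to Treml4 (0.26) and Wfdc17 (0.30). The measure is in log2 units, and for 1 member a smaller value means a closer match. It also depends on how much a gene varied, so values of different members do not rank against each other. The SD over the 16 arrays was 0.53 for Nfe2l2, 0.47 for Srxn1, 0.27 for Nqo1, 0.44 for Gclc and 0.52 for Hmox1.

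Other genes of the pathway were described in 7 lists, also chosen with earlier results known. Of all genes tested, 15.5% were called higher and 14.1% lower for the diet in wild type mice. For the knockout on western diet the shares were 8.82% and 11%, and on chow 0.440% and 0.396%. For the diet in knockout mice they were 4.52% and 3.36%, and for the interaction 2.29% and 4.76%. In the list of other NRF2 targets, which holds conjugating enzymes and reductases, 17 genes were tested. Of these 9 rose and 2 fell with the western diet in wild type mice, with a median of 0.43, and 0 were higher and 10 lower in the knockout on western diet, with a median of -0.48. Gsta1, a glutathione transferase, was above background in 4 of 4 wild type and 3 of 4 knockout mice on western diet, but in 2 of 4 wild type mice and 0 of 4 knockout mice on chow. It rose with the diet in wild type mice, with a fitted log2 difference of 4.39 ± 0.36 (SE) that ran from 3.11 to 5.74 over the alternatives. In the knockout on western diet it was lower, with a fitted difference of -3.67 ± 0.36 that ran from -5.07 to -2.75. With undetected arrays in the lower group these values are not measured folds. Gsta2, of the same family, rose by 2.03 ± 0.28 and was lower by -2.63 ± 0.28, and the probes of these paralogs can bind each other's transcripts. Cbr3, a carbonyl reductase, rose by 2.36 ± 0.29 and was lower by -2.55 ± 0.29, values that ran from 1.55 to 2.97 and from -3.34 to -1.64 over the alternatives. Its level was 6.80 to 8.63 in wild type mice on western diet and 4.70 to 5.36 in knockout mice on that diet. In the latter group Cbr3 was above background in 3 of 4 mice. Adjusted p-values of these 6 differences by limma ran from 5.87e-08 to 2.89e-05.

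The diet effect differed between the genotypes for 5 of those 17 genes, all lower in the knockout. They were Gsta1 (-3.20 ± 0.50), Cbr3 (-2.52 ± 0.41), Gsta2 (-1.56 ± 0.40), Gstm1 (-1.11 ± 0.24) and Ephx1 (-0.56 ± 0.14), the microsomal epoxide hydrolase, with adjusted p of 0.000778 to 0.0225 by limma. The Gsta1 value is a fitted one that rests on knockout mice on chow at background, and its call was lost with the authors' processed values (adjusted p = 0.271), and that of Gstm1 with median scaling (0.107). Gsta2 was lost with the authors' processed values, with the robust variance prior (0.0600) and without the first wild type mouse on chow (0.0511). The count of 5 became 3 with median scaling or with the authors' processed values. In knockout mice the diet called 1 of the 17 higher and 3 lower. The higher call was Gsta1, with a fitted log2 difference of 1.19 (adjusted p = 0.0459 by limma) that ran from 0.63 to 2.96 over the alternatives. Its probe was above background in 3 of 4 knockout mice on western diet and 0 of 4 on chow. With these undetected arrays the value is not a measured fold. The call was lost in 8 of 12 other settings and on leaving out each of 11 arrays. Gstp1 fell by 0.70 ± 0.18 in knockout mice, and its mean level in wild type mice was also lower on western diet, 13.13 against 14.17 on chow. The Gstp1 call in knockout mice was lost in 3 of 12 other settings, median scaling among them, and on leaving out each of 4 arrays. The 3 lower calls became 0 with median scaling or without the second knockout mouse on chow. They became 1 with only the groups compared or without the third knockout mouse on western diet. On chow 2 genes of this list differed between the genotypes: Osgin1, an oxidative stress induced growth inhibitor, was higher by 1.22 ± 0.25 (adjusted p = 0.0232), and Ephx1 was lower by -0.54 ± 0.10 (0.00570). Osgin1 was lost on leaving out each of 5 arrays, with an adjusted p of up to 0.0975.

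Among the regulators and partners of NRF2, 8 were tested and most did not pass. With the diet in wild type mice 1 rose and 1 fell, and on western diet 1 was lower in the knockout. These counts were not above the shares of all genes called, 29.6% and 19.8%. Sqstm1 encodes p62, which binds KEAP1 and carries it to autophagy. It rose by 0.66 ± 0.14 with the diet in wild type mice, was lower by -0.99 ± 0.14 in the knockout on western diet, and its diet effect differed between the genotypes by -0.86 ± 0.20 (adjusted p = 0.0140 by limma, 0.143 with median scaling). Its log2 level was 12.14 to 12.78 in wild type mice on western diet and 11.12 to 11.68 in knockout mice on that diet, with no overlap. Bach1, a repressor at antioxidant response elements, fell by 0.51 ± 0.17 with the diet in wild type mice (adjusted p = 0.0263 by limma), though the groups overlapped. That call was lost with median scaling (0.207) and on leaving out each of 5 arrays (up to 0.0972). The list's medians were 0.03 for the diet in wild type mice and 0.01 for the knockout on western diet.

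Of the 6 genes listed for supply of NADPH to these reactions 4 were tested. With the diet in wild type mice 3 of these 4 rose and 0 fell, with a median of 0.49, and 3 of 4 were lower in the knockout on western diet, with a median of -0.40. Me1 rose by 0.80 ± 0.17 and was lower by -0.61 ± 0.17. Taldo1, transaldolase of the pentose phosphate pathway, rose by 0.56 ± 0.11 and was lower by -0.47 ± 0.11. Tkt, transketolase, rose by 0.42 ± 0.11 and was lower by -0.33 ± 0.11 (adjusted p = 0.0461 by limma), a call lost on leaving out each of 12 arrays. The 3 lower calls became 1 without the first or the fourth wild type mouse, or without the fourth knockout mouse, on western diet.

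Glutathione synthesis and recycling went both ways. Of 7 tested genes 2 rose and 3 fell with the diet in wild type mice, with a median of -0.31, and 1 was higher and 2 lower in the knockout on western diet, with a median of 0.14. The 2 that rose became 1 without the first or the fourth wild type mouse on chow or the third on western diet. Chac1, which degrades glutathione and is a target of the ATF4 stress pathway, rose with the diet by 1.46 ± 0.23 in wild type mice and by 1.54 ± 0.23 in knockout mice. It was lower in the knockout by -1.14 ± 0.23 on chow (adjusted p = 0.0189 by limma, up to 0.0866 on leaving out 1 array) and by -1.06 ± 0.23 on western diet. Hagh, the glyoxalase that frees glutathione from its lactoyl form, fell by 0.78 ± 0.09 in wild type mice, was 0.44 ± 0.09 higher in the knockout on western diet and had an interaction of 0.75 ± 0.13 (adjusted p = 0.00171). Glo1, the other glyoxalase, fell by 0.53 ± 0.10 with the diet in wild type mice. Gss, glutathione synthetase, was lower in the knockout on western diet by -0.51 ± 0.13. Oplah, which returns 5-oxoproline to glutamate, fell by 0.65 ± 0.13 with the diet in knockout mice. In wild type mice the mean Oplah level was also lower on western diet, 9.01 against 9.54 on chow.

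The enzymes that remove superoxide and peroxides were also split. Of 15 tested 6 rose and 3 fell with the diet in wild type mice, and 3 were higher and 4 lower in the knockout on western diet, with medians of 0.03 and -0.04. The main superoxide dismutases and catalase showed small differences with the diet in wild type mice: Sod1 -0.17, Sod2 -0.11 and Cat -0.17, none of which passed. Gpx4, the phospholipid hydroperoxidase that guards against ferroptosis, rose by 0.70 ± 0.10 in wild type mice, was lower by -0.78 ± 0.10 in the knockout on western diet and had an interaction of -0.81 ± 0.15 (adjusted p = 0.00240 by limma). Its level was 10.17 to 10.59 in wild type mice on western diet and 9.39 to 9.76 in knockout mice on that diet. Gpx7 rose by 0.88 ± 0.18 and was lower by -0.84 ± 0.18, and was above background in 3 of 4 wild type mice and 1 of 4 knockout mice on chow. Sesn1, a sestrin, was lower by -0.56 ± 0.13 in the knockout on western diet, whereas Sesn2 fell by 0.58 ± 0.15 with the diet in wild type mice, a call lost with median scaling or with the mean of its detected probes (0.232). With the diet in knockout mice Txnrd2, the mitochondrial thioredoxin reductase, fell by 0.50 ± 0.12 and Gpx3 fell by 0.44 ± 0.12. These calls were lost with median scaling. In wild type mice the mean level on chow and on western diet was 8.68 and 8.18 for Txnrd2 and 7.32 and 7.65 for Gpx3. The interaction was called for Gpx3 (-0.77 ± 0.17), for Sesn1 (-0.66 ± 0.18, lost on leaving out each of 8 arrays) and for Txn2, the mitochondrial thioredoxin (0.44 ± 0.13, lost on leaving out each of 12 arrays). The 3 higher calls in the knockout on western diet became 1 with no detection filter or with only the groups compared.

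The subunits of NADPH oxidase, the superoxide source of phagocytes, moved in comparisons in which the macrophage and the stellate cell markers given above also moved. For the diet in knockout mice 0 of the 3 tested subunits were called, where 4 of the 10 macrophage markers and 1 of the 10 stellate cell markers rose. All 3 tested subunits rose with the diet in wild type mice and were lower in the knockout on western diet. Cyba rose by 1.46 ± 0.21 and was lower by -1.39 ± 0.21, Ncf4 rose by 1.40 ± 0.17 and was lower by -1.19 ± 0.17, and Rac2 rose by 1.15 ± 0.23 and was lower by -1.11 ± 0.23. Their diet effects differed between the genotypes by -1.02, -1.10 and -1.16, and these 3 interaction calls became 1 with the authors' processed values or with no detection filter. The call of Cyba was lost on leaving out each of 12 arrays, that of Rac2 each of 8 and that of Ncf4 0. Of 8 genes of heme handling 4 rose and 1 fell with the diet in wild type mice, with a median of 0.24, and 1 was higher and 4 lower in the knockout on western diet, with a median of -0.26, the 4 becoming 1 with median scaling. Cd163, the scavenger receptor of resident macrophages for haptoglobin and hemoglobin, fell by 1.75 ± 0.28 and was 1.26 ± 0.28 higher in the knockout on western diet. Slc40a1, the iron exporter ferroportin, rose by 0.90 ± 0.17 and was lower by -0.73 ± 0.17 (adjusted p = 0.00490 by limma, 0.0589 with median scaling). Spic, a factor of iron-recycling macrophages, rose by 0.50 ± 0.14 and was lower by -0.96 ± 0.14. Its probe was above background in 3 of 4 knockout mice on each diet. The interaction was called for Slc40a1 (-0.81) and Spic (-0.67), the 2 calls becoming 0 with the authors' processed values. Slc40a1 was lost on leaving out each of 11 of the 16 arrays and Spic on leaving out each of 13.

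**Figure D4:**
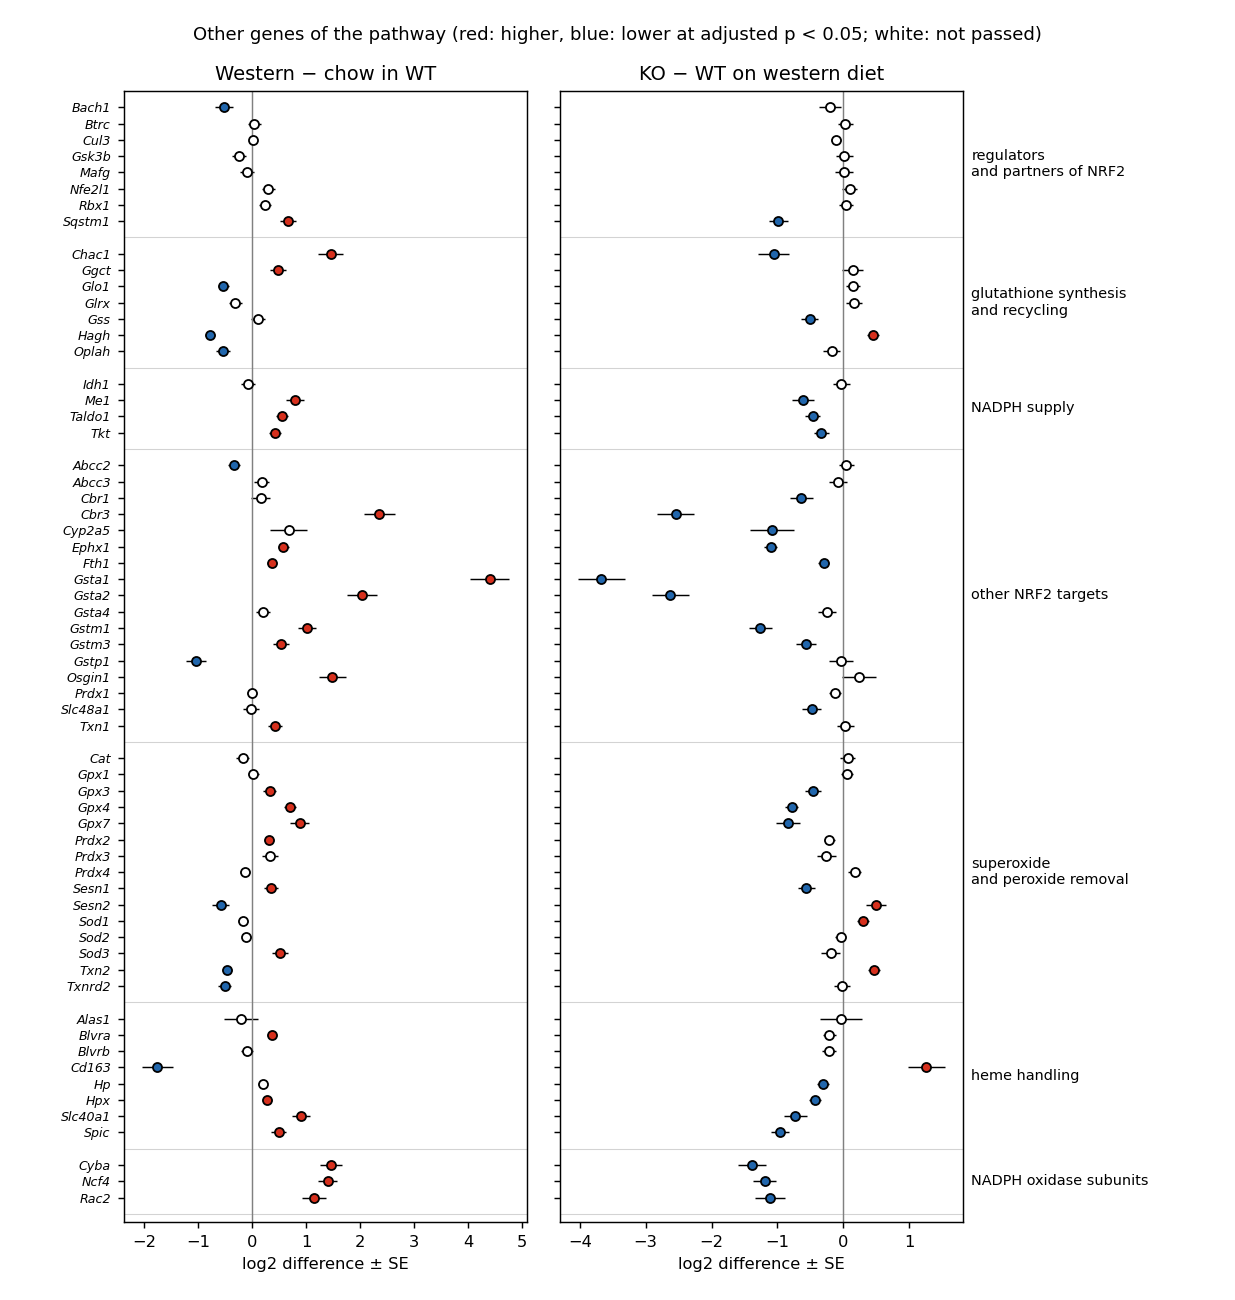
Log2 difference with SE (horizontal axis) of each tested gene of the 7 other lists (rows, grouped by list), for western diet against chow in wild type (WT, left) and SHP-/- (KO) against wild type on western diet (right), filled red where higher and blue where lower at an adjusted p below 0.05 by limma. Gsta1 lies farthest from 0 in both panels, at fitted values of 4.39 and -3.67, with its probe undetected in 2 of 4 wild type mice on chow and 1 of 4 knockout mice on western diet.

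Not analysed here are Maff, Mafk, Slc7a11, Aox1, Ugdh, Ftl1, Msra, Cybb and Ncf1, which were not detected in 4 or more arrays, and Gsr, Ggt1, G6pdx, Pgd, Abcc4, Prdx5 and Prdx6, for which the annotation used named no probe.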

How the data were processed

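The table the authors deposited pairs, per the file headers, an unnormalized bead intensity with a detection p-value for every probe in every array. BeadStudio is named in the submitters' processing notes, with its version not given in the sources used here. The authors' series values, a linear intensity whose values look normalized by quantiles after subtraction of background, served as an alternative. A genome build is not given in the sources used here.

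The neqc function of limma 3.58.1, run in R 4.3.3, corrected background against negative controls inferred from the detection p-value, added 16 and normalized log2 intensities by quantiles. Of 25697 probes 13196 were kept, those detected (p-value below 0.05) in 4 or more arrays, and 12421 of these had a symbol. Platform annotation named 23978 probes with 1 symbol, 0 with several and 1719 with none. A gene was represented by its detected probe with the highest mean, and 2386 genes had several. A model of 4 groups (lmFit, then eBayes with trend, 12 residual degrees of freedom) was fitted to all arrays, and p-values were adjusted over 9095 genes. Mice, 4 per group, were separate animals per the labels. Their number limits the precision. Differences are first group minus second. Within-group Pearson r of log2 levels was 0.984 to 0.993.

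The 8 members and the gene lists were chosen with earlier results of these data known. Named from each list were the genes passing with the 3 largest changes for the diet in wild type and for the knockout on western diet, 2 in the other comparisons, and up to 4 for the interaction. Sod1, Sod2 and Cat were named as well, after their values were seen. The fit was tested on simulated data. The alternatives were other background corrections and scalings, detection filters, probe rules, variance settings, a replicate block, the groups compared alone, and leaving out each array. Figures were drawn with matplotlib 3.10.9 (Python 3.11.15).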

Additional observations from a re-analysis of the deposited data

Results flagged for a closer look

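A value far from the other 3 mice of its group was looked for in 172 sets of 4 mice, and 13 were found, where chance gives about 1 in 20. Among the NRF2 genes these were Hmox1 in wild type mouse 1 on chow (log2 level 6.22, nearest other mouse 7.18) and, in SHP-/- mice on western diet, Srxn1 in mouse 3 (8.25, nearest 8.96), Txnrd1 in mouse 2 (6.28, nearest 6.60) and Keap1 probe ILMN_1258406 in mouse 3 (7.82, nearest 7.92). Among the other pathway genes, SHP-/- mice on chow had Chac1 at 6.52 in mouse 3, Me1 at 8.24 in mouse 2, Sesn1 at 7.24 in mouse 3, Gpx3 at 7.40 in mouse 1, Ncf4 at 5.07 in mouse 3 and Rac2 at 6.02 in mouse 1. Wild type mouse 2 on western diet had Glo1 at 11.84 and Ncf4 at 7.24, and SHP-/- mouse 3 on western diet had Cyba at 7.95.

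The diet effect differed between the genotypes by limma's interaction test, adjusted over all genes, for 19 of the genes named in the report. As the effect in the knockout minus that in wild type on the log2 scale, the members were Srxn1 (-1.31), Nfe2l2 (-0.91) and Nqo1 (-0.76). The conjugating enzymes and reductases were Gsta1 (-3.20), Cbr3 (-2.52), Gsta2 (-1.56), Gstm1 (-1.11) and Ephx1 (-0.56). Sqstm1 (-0.86), Gpx4 (-0.81), Gpx3 (-0.77) and Sesn1 (-0.66) were also lower in the knockout, while Hagh (0.75) and Txn2 (0.44) were higher. The NADPH oxidase subunits were Rac2 (-1.16), Ncf4 (-1.10) and Cyba (-1.02), and the genes of heme handling were Slc40a1 (-0.81) and Spic (-0.67).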

How the results depend on the processing

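Of 472 values of the 8 genes under other settings, 451 kept their direction and side of the threshold, 12 lost the call, 6 gained one and 3 changed sign, and no called value changed sign. The 3 were Keap1 for the diet in wild type (0.014 with median scaling) and the Txnrd1 interaction (0.00842 without background correction and 0.010 with normexp without negative controls). The calls of Srxn1, and of Nfe2l2 for the diet in wild type and the knockout on western diet, held in every setting run. The 3 interaction calls became 1 with the authors' processed values, with no detection filter and with a replicate block, and the 0 calls for the diet in the knockout became 1 with the mean of detected probes. Sizes also varied: the diet difference in wild type ran from 0.78 to 1.41 for Nfe2l2 and 0.26 to 0.77 for Nqo1 over the settings. Over settings and left-out arrays it ran from 0.43 to 1.46 for Gpx7, 0.82 to 1.88 for Ncf4 and 0.63 to 1.65 for Rac2. Of 24 pairs of arrays with the same replicate number 6 correlated above 0.1, and 7 of 16 arrays matched their own number best. Whether replicate numbers paired the mice was not tested, because no chance rate was set beside these counts. Median scaling moved the median difference of all genes from -0.033 to 0.076 for the diet in wild type and from 0.026 to -0.083 for the knockout on western diet. With the replicate block the interaction had an adjusted p of 0.0544 for Nfe2l2 and 0.0551 for Nqo1 (limma).

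Leaving out 1 array gave 2 to 5 calls for the diet in wild type (2 without wild type mouse 4 on western diet), 2 to 5 for the knockout on western diet (5 without SHP-/- mouse 2 on western diet), 0 for the other 2 comparisons, and 1 to 3 for the interaction. The interaction count was 1 without wild type mouse 4 or SHP-/- mouse 4 on chow, wild type mouse 1, 3 or 4 on western diet, or SHP-/- mouse 1 or 4 on western diet. Differences that changed sign on leaving out 1 array ranged, for the knockout on chow, from -0.091 to 0.27 (Nfe2l2), -0.14 to 0.044 (Gclm) and -0.29 to 0.14 (Hmox1), from -0.083 to 0.024 for Gclm with the diet in wild type, from -0.33 to 0.16 for Hmox1 with the diet in the knockout, and in the interaction from -0.12 to 5.6e-05 (Keap1) and -0.18 to 0.15 (Txnrd1). None of these passed a test. Probes of Nr0b2 and of genes near background limit what signal allows.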
